A study of Mus musculus with 16 samples.

Results

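The 75 genes described here are the nuclear genes of the 5 complexes of the mitochondrial respiratory chain and ATP synthase, taken by symbol from a count table of hearts of mouse embryos with HLHS (hypoplastic left heart syndrome, in which the left side of the heart is underdeveloped) and of their littermates. The table holds 37991 genes, and 32919 of them have a symbol. A gene was a member if its symbol started with Nduf followed by a, b, c, s or v and a digit, or with Uqcr, Atp5, Cox6b, Cox6c, Cox7b or Cox7c, or was Sdha, Sdhb, Sdhc, Sdhd, Cyc1, Cox5a, Cox5b or Cox7a2l. Measured values entered the choice only through a floor of 1 CPM (reads of the gene per 1000000 reads) on the mean over all libraries. The rule left out 10 pseudogenes, with 1082 reads in all (0.0115% of the members' counts), and Cox7b2, at a mean of 0.0614 CPM. The members closest above the floor were Cox6b2 at 7.63 CPM, Ndufb2 at 11.8 CPM and Atp5s at 15.8 CPM. By symbol, 37 members belonged to complex I, 4 to complex II, 9 to complex III, 8 to complex IV and 17 to complex V. The tissue isoforms of complex IV subunits 4, 6a, 7a and 8 were outside the rule and are given below as a separate list.

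Both ventricles of 8 embryos of the C57BL/6 background were sequenced separately as RNA, in 16 libraries. The labels name the phenotype of an embryo, HLHS or control, and no allele or treatment. The embryonic days (E) were E13.5, with 1 embryo of each phenotype, E14.5 and E17.5, both with 1 HLHS and 2 control embryos, so each ventricle had 3 HLHS and 5 control libraries. Every stage was 1 litter, so stage and litter cannot be told apart, and HLHS embryos were compared with controls of their own stage. The replicate numbers used here follow stage: control embryo 1 is of E13.5, 2 and 3 are of E14.5, and 4 and 5 are of E17.5, while HLHS embryos 1, 2 and 3 are of E13.5, E14.5 and E17.5. p-values measure the spread between these embryos.

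The respiratory chain in the inner mitochondrial membrane passes electrons from NADH (complex I) and succinate (complex II) through ubiquinone to complex III, then through cytochrome c to complex IV, where oxygen is reduced. Complexes I, III and IV pump protons as they do so, and complex V, the ATP synthase, makes ATP from the returning protons. All but complex II are built from subunits of both genomes: the catalytic cores of I, III and IV include mitochondrially encoded proteins, while the genes described here are read in the nucleus. Heart muscle before birth relies largely on glycolysis, and its mitochondria mature as birth nears.

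A library held 17081273 to 28648645 counts, and the members held 1.79 to 3.08% of a library's counts. Genes that mark heart muscle held 2.69 to 4.24% of the counts of every library. Tnnc1, cardiac troponin C and 1 of the 12 heart muscle markers chosen, had 0 to 3 counts a library and was not tested, while the other 11 were. All 75 members passed the filter on low counts in every comparison. In the right ventricle the controls of a stage lay apart in the mean of every complex, by 0.26 to 0.33 on the log2 scale at E14.5, where embryo 2 was the lower, and by 0.20 to 0.29 at E17.5. Counts and medians of the right ventricle are also given without control embryo 2. Levels are given in CPM with library sizes scaled by TMM factors and are compared between libraries, not between genes, since a longer gene collects more reads.

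In the left ventricle of HLHS hearts the nuclear subunits were lower by a small amount: 40 of the 75 fell, 0 rose and 74 had a negative log2 change (edgeR's quasi-likelihood test, stage as a covariate, Benjamini-Hochberg adjusted p under 0.05 over 15979 genes). Over all genes tested, 6.61% fell and 6.17% rose. The median change of the members was −0.23 on the log2 scale, a 1.17-fold lower level, against 0.01 over all genes. Values after ± are standard errors of the log2 change. At an unadjusted p under 0.05 the number of members was 62, where 28.8% of all genes had such a p. In bulk samples such as these, fewer cells of a type and less RNA per cell cannot be told apart.

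Every complex had members that fell. Of complex I 22 of 37 subunits fell (median −0.23), of complex II 4 of 4 (median −0.29), of complex III 6 of 9 (median −0.24), of complex IV 1 of 8 (median −0.19) and of complex V 7 of 17 (median −0.20). Differences between complexes were not tested. The 40 members that fell had a median of 2124 exon bases and 281 CPM, against 1381 exon bases and 184 CPM for the 35 that did not pass, so length and read depth moved with the calls; their part in the counts was not tested. The number of calls rested on the litter term and on single embryos. Without stage in the fit, 0 members passed (6 at an unadjusted p under 0.05, and 1 gene of all genes passed), although the median change was −0.27 and 74 members were still negative. Leaving out 1 embryo gave 14 calls without HLHS embryo 2, 15 without HLHS embryo 1 or control embryo 1, and 19, 22 and 23 without control embryos 2, 3 and 4, each with at least 72 negative members. The number of all genes that fell moved in these fits too, from 1057 of 15979 with all embryos. It was 470 of 15853 without HLHS embryo 2, 781 of 16430 without control embryo 1 and 638 of 15883 without control embryo 2. Without HLHS embryo 3 it was 1071 of 15937, and 29 members fell.

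**Figure D1:**
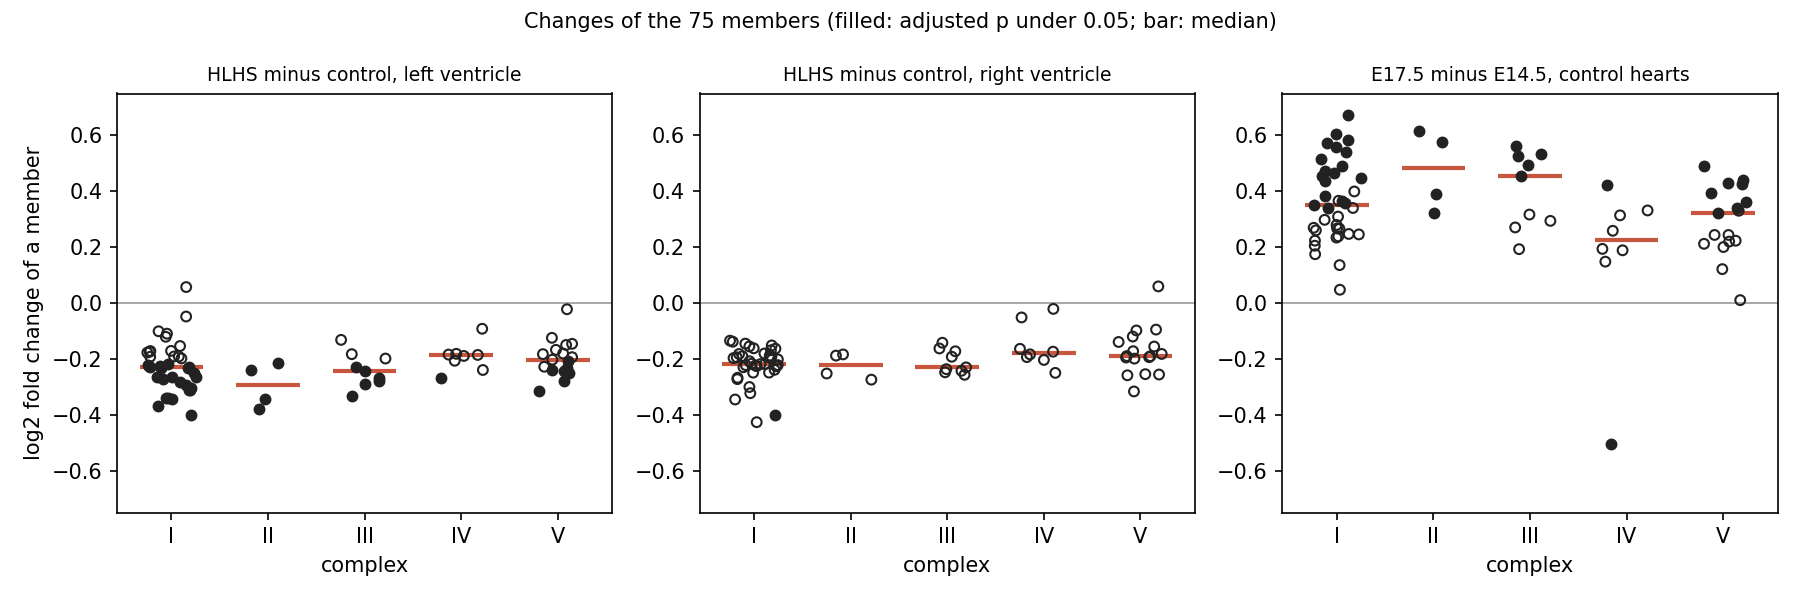
Log2 fold change (vertical axis) of each of the 75 members, grouped by complex, in the HLHS left ventricle, the HLHS right ventricle and in control hearts from E14.5 to E17.5. Filled points passed an adjusted p of 0.05 (40 on the left, 1 on the right, 37 between stages), and bars are medians, for example −0.23 for complex I on the left. The stage comparison uses control libraries that the HLHS comparisons also use.

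Complex I takes electrons from NADH through a chain of iron-sulfur clusters in its matrix arm. Its 7 nuclear core subunits, which carry the flavin, the clusters and part of the quinone site, all fell in the HLHS left ventricle, with a median of −0.30. Of the 30 other members by symbol, most of which surround the core, 15 fell and their median was −0.22. These 30 include Ndufa4, since assigned to complex IV, and its relative Ndufa4l2, neither of which passed. The core genes had a median of 2178 exon bases and 274 CPM, and the others 1234 exon bases and 133 CPM, and the difference between both groups was not tested.

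Ndufs1, the largest iron-sulfur subunit, had 346 CPM in the control and 283 CPM in the HLHS library at E13.5, 417 and 407 in the controls and 311 in HLHS at E14.5, and 612 and 603 in the controls and 464 in HLHS at E17.5. The HLHS library was the lowest of its litter at every stage, and the pairs of controls lay close together. Ndufs1 fell by 0.37 ± 0.06 on the log2 scale (edgeR, Benjamini-Hochberg adjusted p = 0.00474). Ndufs7, which holds the last iron-sulfur cluster before ubiquinone, had 133 CPM in HLHS against 175 in the control at E13.5, 140.5 against 173 and 190.4 at E14.5, and 186 against 244 and 206 at E17.5. It was below its littermates in 3 of 3 litters and fell by 0.34 ± 0.07 on the log2 scale (edgeR, Benjamini-Hochberg adjusted p = 0.0119). Ndufv1, which binds NADH and the flavin, fell by 0.26 ± 0.06 (edgeR, adjusted p = 0.0202).

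Among the accessory subunits the 3 largest changes that passed, beside those of the core, were in Ndufb10, Ndufa8 and Ndufb2. Ndufb10, a subunit of the membrane arm, had 190.3 CPM in the control and 143 CPM in the HLHS library at E13.5, 171 and 183 in the controls and 138 in HLHS at E14.5, and 287 and 253 in the controls and 199 in HLHS at E17.5. The E17.5 HLHS level was closer to the E14.5 controls than to the controls of its own stage. Ndufb10 fell by 0.40 ± 0.06 on the log2 scale (edgeR, Benjamini-Hochberg adjusted p = 0.00397), the largest change of any member that passed on the left. Ndufa8, which faces the intermembrane space, had control levels of 165 CPM at E13.5, 167 and 179 at E14.5 and 262 and 228 at E17.5, and HLHS levels of 126, 135 and 200.2 at these stages. Again each HLHS library was under its littermates, and Ndufa8 fell by 0.34 ± 0.06 on the log2 scale (edgeR, Benjamini-Hochberg adjusted p = 0.00781). Ndufb8, a membrane arm subunit often used as a protein marker of assembled complex I, fell by 0.31 ± 0.06 (edgeR, adjusted p = 0.0122). Ndufa10, an accessory subunit of the membrane arm, fell by 0.29 ± 0.06 (edgeR, adjusted p = 0.0174). Ndufb2 had 8.80 CPM in HLHS against 10.5 in the control at E13.5, 10.2 against 14.4 and 13.4 at E14.5, and 11.6 against 14.7 and 13.9 at E17.5, and fell by 0.34 ± 0.09 on the log2 scale (edgeR, Benjamini-Hochberg adjusted p = 0.0364).

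Of the 15 complex I members that did not pass, 14 had a negative log2 change and Ndufv3 a positive one. Ndufv3, an accessory subunit beside the NADH site, had 166 CPM in the control and 169 CPM in the HLHS library at E13.5, 148 and 157 in the controls and 167 in HLHS at E14.5, and 183 and 167 in the controls and 176 in HLHS at E17.5. The HLHS libraries lay above the control at E13.5, above both at E14.5 and between them at E17.5, and Ndufv3 had a log2 change of 0.06 ± 0.05 (edgeR, adjusted p = 0.536). It was the 1 member of 75 whose left HLHS library was below its littermates in 0 litters. Ndufa4, first counted with complex I and since assigned to complex IV, had a log2 change of −0.23 ± 0.07 (edgeR, adjusted p = 0.0506), just short of the threshold. Its relative Ndufa4l2, a gene known to respond to hypoxia, had 6.29 CPM in HLHS against 10.9 in the control at E13.5, 14.52 against 14.1 and 18.7 at E14.5, and 27.6 against 25.4 and 23.5 at E17.5. The HLHS level was lowest of the litter at E13.5, within the controls at E14.5 and above both at E17.5, and Ndufa4l2 had a log2 change of −0.17 ± 0.16 (edgeR, adjusted p = 0.506).

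Complex II, succinate dehydrogenase, is also an enzyme of the citric acid cycle and is made of nuclear subunits alone. All 4 of its genes fell on the left. Sdha, the flavoprotein that oxidises succinate, had control levels of 768 CPM at E13.5, 828 and 832 at E14.5 and 1319 and 1233 at E17.5, and HLHS levels of 585, 620.2 and 1018 at these stages. At E14.5 both controls were nearly equal and the HLHS library lay under both. Sdha fell by 0.38 ± 0.06 on the log2 scale (edgeR, Benjamini-Hochberg adjusted p = 0.00446). Sdhd, 1 of the 2 membrane anchors, had 312 CPM in the control and 268 CPM in the HLHS library at E13.5, 459 and 451 in the controls and 344 in HLHS at E14.5, and 582 and 546 in the controls and 434 in HLHS at E17.5. The gap to littermates was larger at E14.5 and E17.5 than at E13.5, and Sdhd fell by 0.35 ± 0.06 on the log2 scale (edgeR, Benjamini-Hochberg adjusted p = 0.00854). Sdhb, the iron-sulfur subunit, fell by 0.24 ± 0.06 (edgeR, adjusted p = 0.0306), and the other anchor, Sdhc, fell by 0.21 ± 0.05 (edgeR, adjusted p = 0.0305).

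In complex III, both nuclear subunits that carry electrons fell, as did both core subunits, and 2 of the 5 others (Uqcrb and Uqcr11). Uqcrfs1, the Rieske iron-sulfur protein, had 262 CPM in HLHS against 304 in the control at E13.5, 298 against 394 and 384 at E14.5, and 415 against 559 and 514 at E17.5. Each HLHS value was the lowest of its litter, and Uqcrfs1 fell by 0.33 ± 0.06 on the log2 scale (edgeR, Benjamini-Hochberg adjusted p = 0.0110). Cyc1, cytochrome c1, fell by 0.28 ± 0.06 (edgeR, adjusted p = 0.0175). The core subunits Uqcrc2 and Uqcrc1 had log2 changes of −0.29 ± 0.06 and −0.24 ± 0.06, both past the threshold. Uqcr10, Uqcrh and Uqcrq, small subunits at the edge of the complex, did not pass, with values of −0.18, −0.13 and −0.20.

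Complex IV had 1 call among the 8 genes measured here. Cox5a, a matrix-side subunit, had control levels of 163 CPM at E13.5, 137 and 140.0 at E14.5 and 192 and 171 at E17.5, and HLHS levels of 125, 123 and 149.5 at these stages. The HLHS library was the lowest of each litter, and Cox5a fell by 0.27 ± 0.06 on the log2 scale (edgeR, Benjamini-Hochberg adjusted p = 0.0187). The other 7 were all negative and did not pass: Cox5b at −0.19 ± 0.06, Cox6b1 at −0.21 ± 0.06, Cox6c at −0.18 ± 0.07, Cox7b at −0.19 ± 0.07, Cox7c at −0.18 ± 0.06, the testis type isoform Cox6b2 at −0.24 ± 0.18 and Cox7a2l, which links complexes III and IV into supercomplexes, at −0.09 ± 0.07. Cox7a2l had 173 CPM in the control and 177 CPM in the HLHS library at E13.5, 205 and 219.7 in the controls and 180.3 in HLHS at E14.5, and 239 and 216 in the controls and 220.0 in HLHS at E17.5. Its HLHS library was below its littermates at E14.5 alone.

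In complex V, 2 of 5 subunits of the F1 head fell, 3 of 4 of the peripheral stalk, 2 of 3 genes of subunit c and 0 of 5 others. Atp5a1, the alpha subunit of the head, had 1726 CPM in HLHS against 2085 in the control at E13.5, 1813 against 2158 and 2053 at E14.5, and 2323 against 2818 and 2776 at E17.5. Every HLHS value was under its littermates, and Atp5a1 fell by 0.25 ± 0.05 on the log2 scale (edgeR, Benjamini-Hochberg adjusted p = 0.0183). Atp5b, the catalytic beta subunit, had 2697 CPM in the control and 2253 CPM in the HLHS library at E13.5, 2583 and 2423 in the controls and 2372 in HLHS at E14.5, and 3246 and 3113 in the controls and 2879 in HLHS at E17.5. These values were also the lowest of each litter, but by less, and Atp5b had a log2 change of −0.15 ± 0.06 (edgeR, adjusted p = 0.130). Atp5c1, the gamma subunit of the rotor, fell by 0.23 ± 0.06 (edgeR, adjusted p = 0.0315). Of the stalk that holds the head still, Atp5f1 fell by 0.28 ± 0.06 (edgeR, adjusted p = 0.0167), and Atp5h and Atp5o also passed.

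The ring of the ATP synthase rotor is made of subunit c, which mice encode in 3 genes, Atp5g1, Atp5g2 and Atp5g3, whose mature proteins are known to be the same. Since the genes differ in their targeting peptides and promoters, the 250 bases before the start of each are shown. They come from RefSeq on build GRCm38.p6, which is not the build of the counts, and all 3 genes lie on the minus strand: chr11:96075632-96075881 for Atp5g1, chr15:102671048-102671297 for Atp5g2 and chr2:73911327-73911576 for Atp5g3. Capitals mark exact matches to 2 motifs of known regulators of respiratory genes, GCATGCGC (the type bound by NRF1) and TCAAGGTCA (the type bound by estrogen-related receptors, ERR).
Atp5g1: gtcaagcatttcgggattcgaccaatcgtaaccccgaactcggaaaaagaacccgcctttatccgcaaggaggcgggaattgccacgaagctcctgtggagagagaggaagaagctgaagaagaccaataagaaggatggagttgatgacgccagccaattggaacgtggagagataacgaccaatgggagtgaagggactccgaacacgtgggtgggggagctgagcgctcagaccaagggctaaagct
Atp5g2: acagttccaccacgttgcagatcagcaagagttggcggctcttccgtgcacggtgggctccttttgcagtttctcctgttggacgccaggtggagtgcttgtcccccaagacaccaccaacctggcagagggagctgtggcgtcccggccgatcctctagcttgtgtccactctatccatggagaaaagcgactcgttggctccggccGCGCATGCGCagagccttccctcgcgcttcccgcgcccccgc
Atp5g3: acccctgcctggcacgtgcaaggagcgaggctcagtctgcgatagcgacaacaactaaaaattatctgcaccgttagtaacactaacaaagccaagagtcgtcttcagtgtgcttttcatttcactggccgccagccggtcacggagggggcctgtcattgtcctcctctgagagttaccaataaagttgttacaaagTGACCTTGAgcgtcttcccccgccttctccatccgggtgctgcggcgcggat
In Atp5g2 the NRF1 type motif matched on both strands, in overlapping positions that begin 42 and 40 bases before the start. In Atp5g3 the ERR type motif matched on the opposite strand, where it reads TGACCTTGA, 52 bases before the start. In the stretch of Atp5g1 neither of these letters matched. A match is a description of the sequence and not a site of binding, and no match says only that the letters are not in this window.

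Atp5g1 had control levels of 383 CPM at E13.5, 359 and 356 at E14.5 and 499 and 449 at E17.5, and HLHS levels of 284, 309 and 376 at these stages. All 3 HLHS libraries lay under their littermates, and Atp5g1 fell by 0.32 ± 0.07 on the log2 scale (edgeR, Benjamini-Hochberg adjusted p = 0.0158). Atp5g3 had 669 CPM in the control and 542 CPM in the HLHS library at E13.5, 745 and 745 in the controls and 641 in HLHS at E14.5, and 933 and 849 in the controls and 764 in HLHS at E17.5, lowest in HLHS in 3 of 3 litters, and fell by 0.24 ± 0.06 on the log2 scale (edgeR, Benjamini-Hochberg adjusted p = 0.0298). Atp5g2, named here after its values were seen, had 226 CPM in HLHS against 255 in the control at E13.5, 284 against 278 and 281 at E14.5, and 274 against 284 and 250.4 at E17.5. Its HLHS library was below the control at E13.5, above both at E14.5 and between both at E17.5, and Atp5g2 had a log2 change of −0.02 ± 0.06 (edgeR, adjusted p = 0.855). Differences among the 3 genes were not tested.

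**Figure D2:**
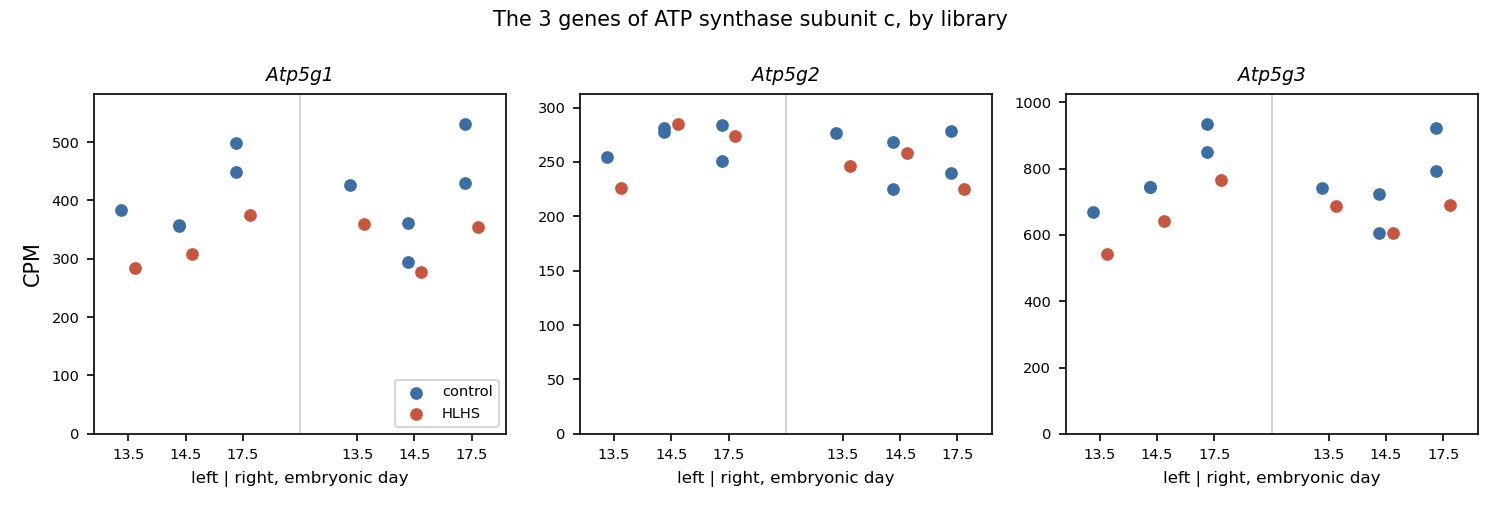
CPM (vertical axis, from 0) of the 3 genes of ATP synthase subunit c in each of the 16 libraries, by embryonic day, left ventricle then right ventricle in each panel. Atp5g1 and Atp5g3 lay lower in each left HLHS library (for example 284 against 383 CPM for Atp5g1 at E13.5), while Atp5g2 stayed between 226 and 284 CPM in the left libraries of both groups.

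The same promoter windows, here with the 50 bases after the start as well, were found for 62 of the 75 members. The NRF1 type motif (both strands) was in 14.52% of them and in 3.94% of the windows of 17492 protein-coding genes. The ERR type motif was in 3.23% of the members, Sdhd and Atp5g3, and in 0.38% of all. AAGATGGC, a YY1 type motif, was in 16.13% against 3.57%, and CCGGAAGT, an ETS type motif, in 6.45% against 5.69%. Of the 7 matched members of complex IV, 0 held any of the 4 motifs. Each motif alone was in 0.38 to 5.69% of the windows of all genes, and the share with any of the 4 was not counted. With so few genes, 0 of 7 does not set complex IV apart.

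Taking each litter on its own, 59 of 75 members were lower in the left HLHS library than in every littermate control at all 3 stages, and 0 were higher in all. Over all genes tested, 16.0% were lower in this way. Such members numbered 30 of 37 in complex I, 4 of 4 in complex II, 8 of 9 in complex III, 4 of 8 in complex IV and 13 of 17 in complex V. By stage, 73 members were lower at E13.5 (with 1 control), where 46.4% of all genes were, 72 at E14.5 (42.4% of all genes) and 59 at E17.5 (38.9%).

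The mean of log2(CPM + 1) over the members of a complex gives the size of the gap in each litter. For complex I the left HLHS library was lower by 0.27, 0.22 and 0.19 at the 3 stages in order, where the 2 controls of a stage differed by 0.05 and 0.18. Complex II had gaps of 0.26, 0.31 and 0.30, with controls 0.0016 and 0.10 apart, and complex III had gaps of 0.26, 0.23 and 0.23. Complex IV had gaps of 0.30, 0.20 and 0.099, and at E17.5 its gap was smaller than the 0.19 between the controls. For complex V they were 0.27, 0.17 and 0.17, with controls 0.011 and 0.15 apart. The 2 controls were thus closer at E14.5 than at E17.5 in all complexes on the left.

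**Figure D3:**
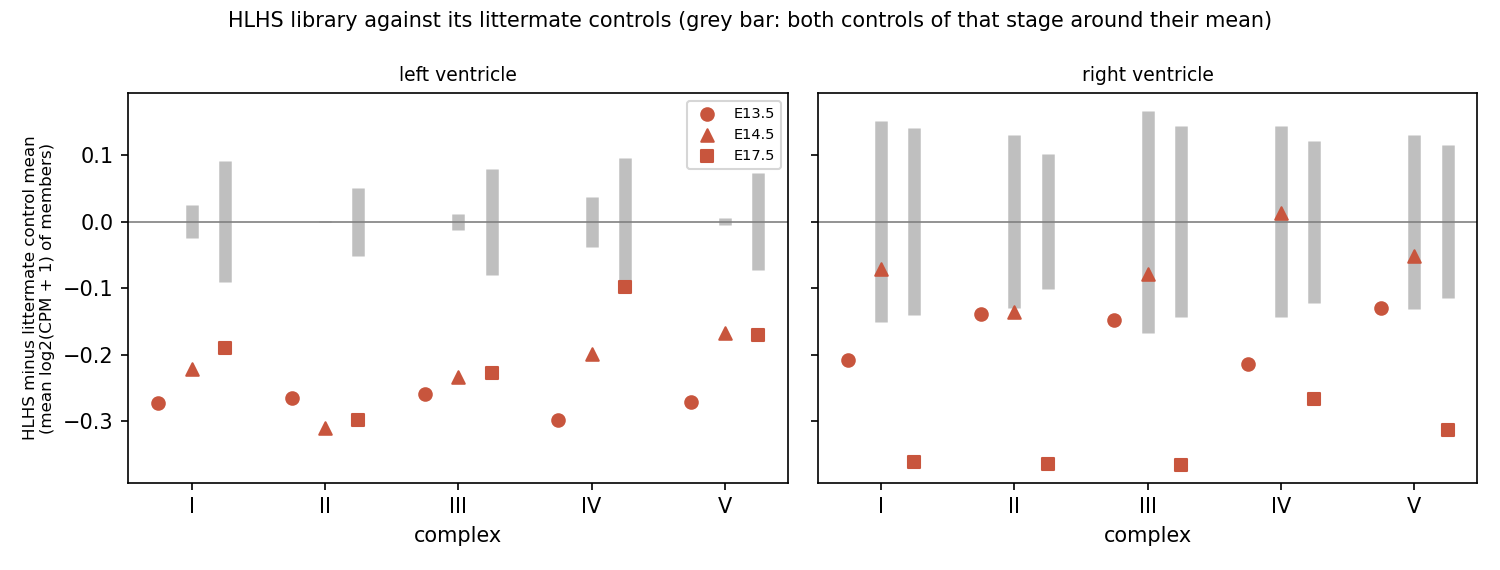
Difference in mean log2(CPM + 1) between the HLHS library and the mean of its littermate controls (vertical axis) for each complex and stage, left and right ventricle. Grey bars span both controls of a stage around their mean, and E13.5 has 1 control and no bar. On the left all points lie below the bars, while on the right the E14.5 points of complexes I, III, IV and V lie within them.

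Other genes of the same machinery were read from the same fit. Of 12 mitochondrially encoded subunits tested, 0 passed and 0 had an unadjusted p under 0.05 (edgeR), with a median of 0.00, and 6 were positive. The electron carriers fell in 3 of 4 genes: Etfa (−0.45 ± 0.07), Etfb (−0.42 ± 0.07) and Etfdh (−0.39 ± 0.07), which pass electrons from fatty acid oxidation to ubiquinone, while cytochrome c, Cycs, stood at −0.19 ± 0.07. Of the assembly factors, 5 of 15 for complex I fell (such as Ndufaf4, −0.47 ± 0.13), 0 of 4 for complex II, 1 of 6 for complex III (Uqcc1, −0.49 ± 0.06), 4 of 16 for complex IV and 2 of 3 for complex V (Atpaf1, −0.30 ± 0.06, and Tmem70, −0.34 ± 0.07). 0 assembly factors rose.

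The complex IV tissue isoforms divided by gene. The heart and muscle forms Cox8b (−0.87 ± 0.14), Cox7a1 (−0.70 ± 0.08) and Cox6a2 (−0.49 ± 0.06) fell, and their widespread counterparts Cox8a (−0.05 ± 0.06), Cox7a2 (−0.07 ± 0.06) and Cox6a1 (−0.05 ± 0.06) did not pass. Of 8 regulators of mitochondrial genes, 3 fell: Perm1 (−1.35 ± 0.07), Ppargc1a (−0.36 ± 0.09), the coactivator PGC-1 alpha, and its partner Esrra (−0.32 ± 0.05), an estrogen-related receptor. Nrf1 stood at 0.03 ± 0.06 and Gabpa at −0.18 ± 0.06. Of 8 genes that follow mitochondrial content, such as the outer membrane channels Vdac1 to Vdac3 and citrate synthase, 0 passed and 4 had an unadjusted p under 0.05 (edgeR), with a median of −0.14.

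Markers of cell types moved on the left as well. Red blood cell genes rose in 9 of 10 cases (median 0.79) and held 0.0741 to 0.134% of the counts in HLHS and 0.0451 to 0.0866% in control libraries. With these 10 genes left out of the fit, 40 members fell. They hold so few of the counts that this fit could hardly differ, and it does not test the part of red blood cells. Heart muscle genes fell in 2 of 11 cases (Tnni3 and Myh6; median −0.05), with 2.94 to 3.43% of the counts in HLHS and 2.74 to 3.86% in controls. By litter their share in HLHS was 3.43% against 3.86% in the control at E13.5. It was 2.94% against 3.02 and 2.74% at E14.5, and 3.27% against 3.82 and 3.71% at E17.5. Fibroblast genes fell in 4 of 8 cases (0.366 to 0.434% against 0.434 to 0.517%), endothelial genes in 3 of 8 (0.0940 to 0.128% against 0.126 to 0.136%), 1 of 5 epicardial genes rose, and 0 of 6 macrophage and 0 of 4 atrial genes passed (0 and 1 at an unadjusted p under 0.05, edgeR). The part of these cell types in the members' changes was not tested.

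In the right ventricle the members' values were also lower in HLHS hearts, with wider errors and 1 call. Of the 75, 74 had a negative log2 change, 22 had an unadjusted p under 0.05 (23.5% of all genes did), and 1, Ndufb2, fell at an adjusted p under 0.05 (edgeR's quasi-likelihood test, stage as a covariate). Over the 16142 genes tested, 3.05% fell. The median was −0.20 for the members and 0.01 for all genes, and the median standard error of a member was 0.10, against 0.06 on the left. Medians by complex were −0.22 for I and II, −0.23 for III, −0.18 for IV and −0.19 for V. DESeq2 called 7 members and a fit with no count filter 6. A fit of all libraries together, which did not pair the ventricles of an embryo, called 2. Without control embryo 2, 15 members fell, 68 had an unadjusted p under 0.05, and the median was −0.27, with −0.28 for complexes I and II, −0.29 for III and −0.25 for IV and V. Calls over all genes rose as well: 674 of 15987 fell in that fit, against 492 of 16142 in the full fit. Embryo 2 was singled out because the members' means were low in it, so that fit adds no separate support. The members' median was −0.11 without HLHS embryo 3 and −0.29 without HLHS embryo 2. Without HLHS embryo 3 the count was 1, where 175 of 16094 genes fell. Without any single embryo other than this and control embryo 2 it was 0 (7 to 29 at an unadjusted p under 0.05). Calls over all genes dropped in those fits too, from 88 of 16556 that fell without control embryo 1 to 404 of 16067 without control embryo 4. Without the stage term 0 members passed (1 at an unadjusted p under 0.05), and 0 of all 15758 genes did.

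Ndufb2 had 12.7 CPM in the control and 8.58 CPM in the HLHS library at E13.5, 12.02 and 12.9 in the controls and 9.95 in HLHS at E14.5, and 12.5 and 13.1 in the controls and 10.01 in HLHS at E17.5. Each HLHS library was the lowest of its litter, and Ndufb2 fell by 0.40 ± 0.10 on the log2 scale (edgeR, Benjamini-Hochberg adjusted p = 0.0397). Ndufb10 had 187 CPM in HLHS against 212 in the control at E13.5, 145 against 157 and 186 at E14.5, and 199 against 308 and 254 at E17.5, again lowest in 3 of 3 litters, and had a log2 change of −0.32 ± 0.10 (edgeR, adjusted p = 0.0779). Sdha had control levels of 927 CPM at E13.5, 800.0 and 923 at E14.5 and 1346 and 1234 at E17.5, and HLHS levels of 801, 764 and 1005 at these stages, with the HLHS library lowest of each litter, and had a log2 change of −0.25 ± 0.09 (edgeR, adjusted p = 0.107). Ndufs7 had a log2 change of −0.35 ± 0.11 (edgeR, adjusted p = 0.0978), and Atp5g1 had a log2 change of −0.32 ± 0.10 (edgeR, adjusted p = 0.0930). Ndufa4l2 had 10.5 CPM in the control and 6.81 CPM in the HLHS library at E13.5, 16.3 and 16.9 in the controls and 9.73 in HLHS at E14.5, and 25.8 and 22.3 in the controls and 23.7 in HLHS at E17.5. It was far below its controls at E13.5 and E14.5 and between them at E17.5, and it had a log2 change of −0.43 ± 0.14 (edgeR, adjusted p = 0.104). Without control embryo 2, Ndufb10 (−0.38 ± 0.09, adjusted p = 0.0331), Sdha (−0.30 ± 0.08, adjusted p = 0.0449), Ndufs7 (−0.41 ± 0.10, adjusted p = 0.0313) and Atp5g1 (−0.38 ± 0.09, adjusted p = 0.0334) passed in edgeR, and Ndufa4l2 (−0.41 ± 0.15, adjusted p = 0.109) did not. That embryo was singled out because the members' complex means were low in it, so these calls are a description and no separate support. Without control embryo 3, of the same stage, 0 members passed. Atp5s, coupling factor B of the synthase, was the 1 member with a positive value (0.06 ± 0.11).

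By litter, 13 of 75 members were below every littermate control at all 3 stages on the right, with 0 above, where 12.8% of all genes were below. They were 5 of complex I, 2 of II, 2 of III, 0 of IV and 4 of V. At E13.5 it was 74 members (47.3% of all genes) and at E17.5 it was 73 (36.2%), but at E14.5 it was 14 (36.3%). Without control embryo 2, a comparison added after its values were seen, 72 members were lower at E14.5, and the share of all genes at that stage was not counted. In all 3 litters 71 members were lower, where 17.8% of all genes were. Without control embryo 3, 4 or 5 instead, 13, 13 and 14 members were lower in all 3 litters, where 14.3, 16.7 and 14.1% of all genes were. At E14.5 control embryo 2 lay low and the HLHS library fell between both controls in the mean of complexes I, III, IV and V: the HLHS gap was 0.072 for complex I, where the controls were 0.30 apart. At E17.5 the gap was 0.36 for complexes I and II, 0.37 for III, 0.27 for IV and 0.31 for V, each larger than the 0.20 to 0.29 between the controls. Heart muscle genes on the right fell in 2 of 11 cases with all 11 negative (median −0.27; 2.69 to 3.53% of the counts in HLHS, 3.22 to 4.24% in controls), so these markers moved with the members there, and their part was not tested. Red blood cell genes did not pass on the right (0 of 10; 1 at an unadjusted p under 0.05, edgeR), and fibroblast genes, also with 0 of 8 past the threshold (7 at an unadjusted p under 0.05), had a median of 0.35.

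**Figure D4:**
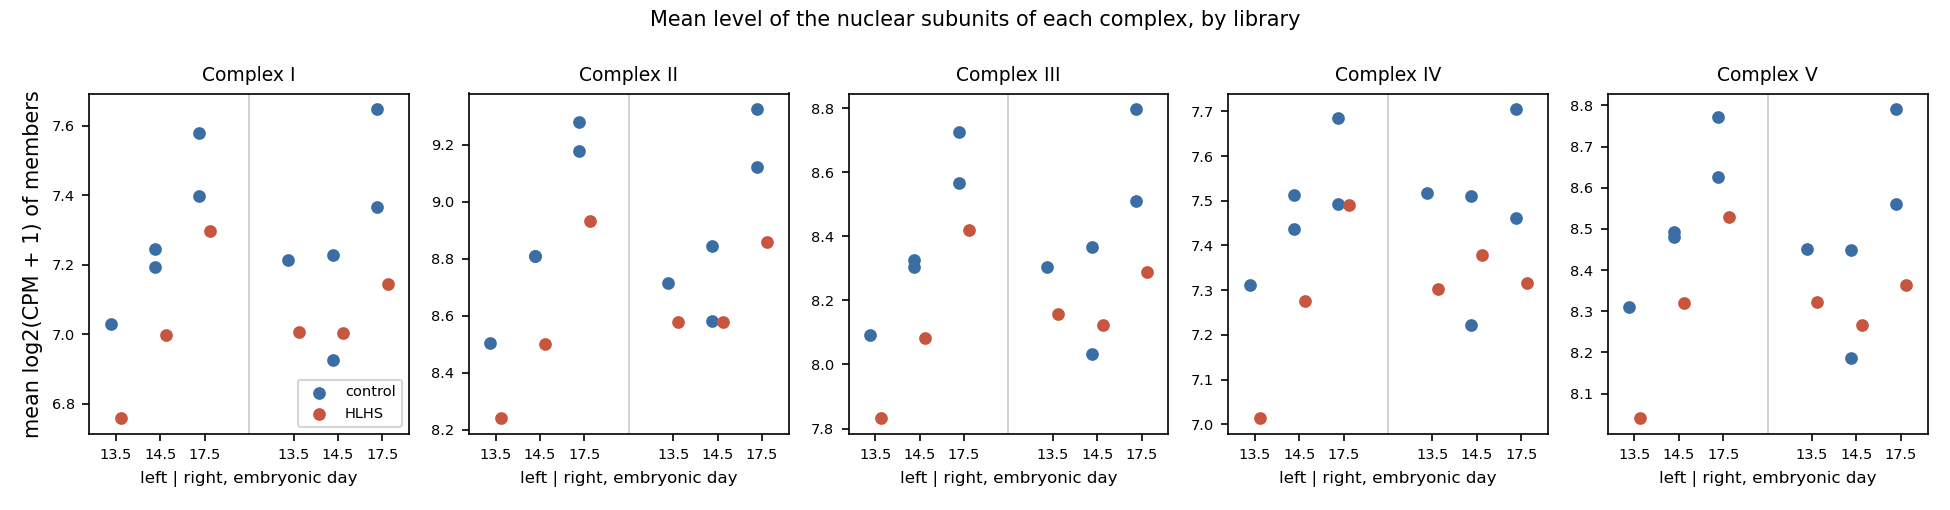
Mean log2(CPM + 1) over the members of each complex (vertical axis, own range in each panel) in every library, by embryonic day, left ventricle then right ventricle in each panel. The left HLHS library lies under its littermate controls for every complex and stage, and the E14.5 controls of the right ventricle lie far apart (6.92 and 7.23 for complex I).

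Of 12 mitochondrially encoded genes 0 passed (0 at an unadjusted p under 0.05, edgeR; median −0.09). Of the assembly factors, Uqcc1 (−0.39 ± 0.08) and Coa7 (−0.33 ± 0.08), which serve complexes III and IV, fell. The muscle isoforms Cox8b (−0.66 ± 0.15), Cox6a2 (−0.53 ± 0.10) and Cox7a1 (−0.49 ± 0.12) fell here too, as did Perm1 (−0.88 ± 0.08), 1 of 8 regulators. Electron carriers had 0 of 4 calls (3 at an unadjusted p under 0.05, edgeR). Assembly factors of complexes I and V had 0 of 15 and 0 of 3 (4 and 2 unadjusted), and mitochondrial content genes 0 of 8 (1 unadjusted). Of 8 endothelial genes 1 fell (3 unadjusted). Epicardial, macrophage and atrial genes had 0 calls (1, 2 and 0 unadjusted).

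Whether the members' change in HLHS differed between the sides was tested directly, with the embryo as a block over all 16 libraries. None of the 75 passed in edgeR, 0 had an unadjusted p under 0.05, and DESeq2 and limma-voom also called 0, while 0.0182% of 16508 genes passed in edgeR and 8.55% had an unadjusted p under 0.05. The left change minus the right change had a median of −0.06 over the members, with medians of −0.06 for complex I, −0.11 for II, −0.06 for III, −0.06 for IV and −0.06 for V, and a median standard error of 0.12. The sign of the median over the members rested on single embryos: it was 0.06 without HLHS embryo 1 and 0.01 without control embryo 2, and −0.16 without HLHS embryo 3. The number of negative members was 61 with all embryos, 15 without HLHS embryo 1 and 33 without control embryo 2. The smallest p-values were those of Ndufs1 (difference −0.21 ± 0.11, unadjusted p = 0.0743), Atp5s (−0.27 ± 0.15, unadjusted p = 0.0948) and Ndufv3 (0.17 ± 0.10, unadjusted p = 0.111), all in edgeR. A difference between the sides was thus not detectable for any member at these errors, and the counts of 40 on the left and 1 on the right do not show one.

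Within embryos, the left ventricle was also compared with the right. In control hearts 0 of 75 passed and 0 had an unadjusted p under 0.05 in edgeR (DESeq2 and limma-voom called 0), where 6.10% of 16238 genes passed and 3413 genes had such an unadjusted p. The median left minus right difference was 0.02 (−0.03 without control embryo 2), and single members ran from −0.20 for Cox6b2 to 0.12. In HLHS hearts 0 of 75 passed as well (0 at an unadjusted p under 0.05; DESeq2 and limma-voom called 0), where 4.04% of 15771 genes passed and 2521 genes had such an unadjusted p, with a median of −0.01 (0.10 without HLHS embryo 1 and −0.11 without HLHS embryo 3). The range there was −0.44 for Cox6b2 to 0.27 for Ndufa4l2. Without HLHS embryo 3, which leaves 2 embryos, 1 member was lower on the left.

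From E14.5 to E17.5 in control hearts, with the counts of both ventricles of an embryo summed (2 embryos a stage), 36 of the 75 members rose and 1 fell (edgeR's quasi-likelihood test, Benjamini-Hochberg adjusted p under 0.05). Over 16823 genes, 15.8% rose and 14.1% fell. The median change of the members was 0.33, a 1.26-fold higher level at E17.5, against −0.01 for all genes. Without control embryo 4 the members' median was 0.21, and without control embryo 5 it was 0.45. Complex II rose in 4 of 4 genes (median 0.48), complex III in 5 of 9 (0.45), complex I in 18 of 37 (0.35), complex V in 8 of 17 (0.32) and complex IV in 1 of 8 (0.23). Without control embryos 2 and 3 the members' median was 0.25 and 0.43. Each fit without 1 embryo leaves 1 embryo at a stage, which is assumed to vary like the others, so only medians are given for these fits. In the right ventricle alone, where E14.5 control embryo 2 was low, 22 members passed with a median of 0.41. There 1522 of 15624 genes rose and 1383 fell. In the left alone 43 members passed with a median of 0.24, where 3100 of 15441 genes rose and 2734 fell. The right thus had fewer calls but the larger median.

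Ndufb10 rose by 0.67 ± 0.10 on the log2 scale (edgeR, adjusted p = 0.00492), the largest rise of the members. Its control libraries held 157 to 186 CPM at E14.5 and 253 to 308 CPM at E17.5 over both sides. Sdha rose by 0.62 ± 0.09 on the log2 scale (edgeR, adjusted p = 0.00445), with 800.0 to 923 CPM at E14.5 and 1233 to 1346 CPM at E17.5. In both genes the stages did not overlap, over 2 embryos a stage, and the share of all genes with such a split was not counted. Of the complex I core, 6 of 7 rose (median 0.47), among them Ndufs1 (0.57 ± 0.08) and Ndufv1 (0.54 ± 0.10), while Ndufs7 had a log2 change of 0.40 ± 0.13 (edgeR, adjusted p = 0.0525). Ndufa8 (0.61 ± 0.12), Ndufa10 (0.58 ± 0.10) and Ndufa4l2 (0.56 ± 0.11) also rose, and Ndufb2 had a log2 change of 0.05 ± 0.09 (edgeR, adjusted p = 0.717).

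Sdhb (0.58 ± 0.10), Sdhd (0.39 ± 0.09) and Sdhc (0.32 ± 0.09) rose. So did the complex III genes Uqcrc1 (0.56 ± 0.10), Uqcrc2 (0.53 ± 0.09), Uqcrfs1 (0.53 ± 0.10) and Cyc1 (0.49 ± 0.11). In complex IV, Cox5a rose (0.42 ± 0.10) and Cox6b2 fell. Cox6b2 had 7.77 and 10.04 CPM in the E14.5 controls and 6.89 and 5.58 CPM in the E17.5 controls on the left and 9.12 and 10.4 CPM in the E14.5 controls and 6.81 and 6.88 CPM in the E17.5 controls on the right. All 4 of its E14.5 libraries were above all 4 of E17.5, but they came from 2 embryos a stage. Cox6b2 fell by 0.50 ± 0.13 on the log2 scale (edgeR, Benjamini-Hochberg adjusted p = 0.0300). It had the lowest mean of the members, 7.63 CPM. In the left ventricle alone 1 member fell between the stages, and in the right ventricle alone 0 did. In complex V, Atp5g1 (0.49 ± 0.10), Atp5f1 (0.44 ± 0.10), Atp5a1 (0.43 ± 0.09), Atp5c1 (0.43 ± 0.10), Atp5b (0.36 ± 0.09) and Atp5g3 (0.32 ± 0.10) rose. Atp5g2 had a log2 change of 0.01 ± 0.09 (edgeR, adjusted p = 0.946).

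Around the members, 4 of 12 mitochondrially encoded genes rose between the stages (median 0.24), 4 of 4 electron carriers, 9 of 15 assembly factors of complex I, 1 of 4 of complex II, 4 of 6 of complex III, 4 of 16 of complex IV and 2 of 3 of complex V. The muscle isoforms Cox6a2 (0.86 ± 0.11), Cox8b (0.77 ± 0.15) and Cox7a1 (0.65 ± 0.12) rose, as did Cox4i1 (0.38 ± 0.10). Of the regulators Perm1 (1.37 ± 0.08), Ppargc1b (0.77 ± 0.10), Esrra (0.63 ± 0.08) and Tfam (0.26 ± 0.06) rose, and Ppargc1a had a change of 0.00 ± 0.08. Of 8 genes that follow mitochondrial content 7 rose (median 0.32). Heart muscle genes rose in 6 of 11 cases (median 0.33) and red blood cell genes fell in 5 of 10 (median −0.35). Of 8 fibroblast genes 3 rose (median 0.12), of 6 macrophage genes 2 fell (median −0.45, all 6 negative), of 8 endothelial genes 2 rose and 2 fell, of 4 atrial genes 1 fell, and 0 of 5 epicardial genes passed (1 at an unadjusted p under 0.05, edgeR). The part of these cell types in the members' rise was not tested. Since the stage comparison and the HLHS comparisons share control libraries, their values are set side by side only: complex II had medians of 0.48 with stage and −0.29 in the HLHS left ventricle, and complex IV 0.23 and −0.19.

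Some members share exon sequence with other genes, and whether the counting used strand is not given in the sources used here. In 10 of 75 members over 10% of the exon bases are covered by another gene's exons, and in 3 it is over 20%: Atp5o (47.9%), Ndufb6 (39.0%) and Ndufa13 (30.0%). Of these, Atp5o and Ndufa13 were among the 40 that fell on the left, and their counts are uncertain to that extent.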

How the data were processed

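RNA of both ventricles of 8 embryos was measured in 16 libraries, made with a TruSeq kit per the labels. The values are read counts per gene, whole numbers, as the authors made and deposited them. Per the submitters' processing notes, the build was mm9, and HTSeq 0.5.4p5, TopHat2 2.0.9, edgeR 3.4.2 and Picard were used. Not given in the sources used here are their order, the annotation and the strand setting. Gene names came from GENCODE annotation of another build by gene ID, and promoter sequences from RefSeq (GRCm38.p6). 0 columns were left without a sample.

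Tests were run with edgeR 4.0.16 in R 4.3.3 (glmQLFit and glmQLFTest, TMM scaling, genes kept by filterByExpr at a count of 10 and a total of 15), adjusted over all genes by Benjamini-Hochberg at 0.05. HLHS was compared with control within each side with stage as a term. The sides were compared with the embryo as a block, since the embryo number in the sample titles pairs the ventricles of an animal. Stages were compared on counts summed per embryo. Alternatives were DESeq2 1.42.0 and its size factors, limma-voom (limma 3.58.1), other count filters, marker genes left out, fits without the block and leaving out each embryo. The main fit of each comparison was run on simulated counts, and the alternatives were not. The planted changes were larger than the members' medians, so recovery of changes as small as theirs was not tested. Levels are CPM, and means over a complex use log2(CPM + 1). Depth sets the counting precision of each value, and reads are not independent molecules.

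The members and the lists of other genes were chosen with earlier results of these data known. Genes named in the text are a panel of catalytic and structural subunits, the 3 largest changes past the threshold in each complex and comparison, members that changed against the majority, and the 3 smallest p-values of the difference between the sides; other members are named to account for a group, after their values were seen. The values of 1 gene that the naming rule picks are not reported here. Sequences on chromosome 18 and a comparison of protein sequences were not used here, and the authors' own comparisons were not used.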

Additional observations from a re-analysis of the deposited data

Results flagged for a closer look

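In 1 of 78 groups of 5 control libraries checked (the CPM of the 34 members that the naming rule picked and the mean level of each of the 5 complexes, on both sides), a sample lay apart from the other 4. Atp5s, coupling factor B of the ATP synthase, had 10.7 CPM in the E13.5 control left ventricle, where the 4 other control libraries of the left side held 17.8 to 19.4 CPM. The E13.5 HLHS library was also low, at 9.86 CPM, and so was the E13.5 control right ventricle, at 11.0 CPM. Chance alone marks about 1 in 20 such groups.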

How the results depend on the processing

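Leaving out 1 embryo at a time moved the number of members past the threshold from 40 to between 14 and 51 in the left ventricle, from 1 to between 0 and 15 in the right, from 0 to at most 1 between the sides of HLHS hearts (0 to 1) and from 37 to between 22 and 70 between stages. The difference of the HLHS effect between the sides and the sides of control hearts stayed at 0 under every alternative run. Without the replicate block, that is without stage (litter) as a term, 0 members passed on the left and 0 on the right. With embryos replaced by stage the side comparisons stayed at 0. In HLHS hearts, with 1 embryo a stage, that fit is the same as the main fit, so its 0 was fixed in advance. All libraries in 1 fit gave 15 on the left and 2 on the right. That fit had no embryo term, so both ventricles of an embryo counted as independent. Over all genes 995 of 16209 fell on the left in it, against 1057 of 15979 in the main fit. DESeq2 gave 7 and no count filter 6 on the right, and the right ventricle alone gave 22 between stages. Other scalings, filters and marker genes left out gave 40 to 51 on the left. The cause of these moves was not tested.

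In the side comparisons the direction of most members turned when 1 embryo was left out. Negative members numbered 61 for the left minus right HLHS effect, between 15 (without HLHS embryo 1) and 72 (without HLHS embryo 3). They numbered 46 between the sides of HLHS hearts, between 13 and 68 without HLHS embryos 1 and 3, and 27 between the sides of control hearts, between 10 and 52 without control embryos 1 and 2. Within a ventricle and between stages, fewer of the named members turned. Atp5s on the right was −0.015 without the block (0.06 with it) and −0.0031 between stages in the left ventricle alone. Cox6b2 on the right was 0.015 in limma-voom, and Atp5g2 between stages was −0.014 with at least 1 CPM in 3 libraries and −0.073 in the left ventricle alone. Leaving out 1 embryo gave ranges that cross 0 for Atp5g2 (−0.054 to 0.032) and Ndufa4l2 (−0.40 to 0.0076) on the left, Atp5s (−0.060 to 0.24), Cox6b2 (−0.20 to 0.13) and Cox7a2l (−0.15 to 0.031) on the right, and Atp5g2 between stages (−0.10 to 0.11), none of which passed in the full fits. Over the alternatives that kept all embryos, 874 values of named members and complexes kept their direction and side of the threshold, 37 passed only under the alternative, 39 no longer passed and 5 changed sign. With 3 HLHS embryos, 1 per litter, the spread among HLHS embryos of a stage cannot be measured.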

Other observations

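A few genes of the same complexes have symbols that the choice of members does not match, and their values are given here. Ndufab1, the acyl carrier protein that is also a subunit of complex I, fell by 0.32 ± 0.06 on the log2 scale in the HLHS left ventricle (edgeR, adjusted p = 0.0106) and had a change of −0.32 ± 0.10 on the right (edgeR, adjusted p = 0.0968). It rose by 0.49 ± 0.10 from E14.5 to E17.5 in control hearts (edgeR, adjusted p = 0.0113). Atpif1, the inhibitor of the ATP synthase when it runs in reverse, had changes of −0.08 ± 0.08 on the left, 0.05 ± 0.10 on the right and 0.02 ± 0.11 between stages, and did not pass in any of these. Usmg5, a small subunit of the synthase dimer, had changes of −0.11 ± 0.07, −0.12 ± 0.11 and 0.14 ± 0.12 and did not pass either.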
